A study of Macaca mulatta with 16 samples.

Results

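The 45 listed interferon-stimulated genes were followed in the fetal lung of rhesus macaques exposed to intraamniotic lipopolysaccharide (LPS), the endotoxin of the outer membrane of Gram-negative bacteria. The genes were listed by symbol, from general knowledge of the interferon response. No measured value enters the rule, but the list was drawn up with earlier results of these data known, so the counts of its members are a description and not independent evidence. Of the 45 symbols, 41 had a row among the 22515 Ensembl genes of the count table, and all 41 passed the filter on low counts that left 19199 genes for testing. IFIH1, GBP1, GBP2 and GBP5 had no row under their symbols and were not analysed here. RNA came from whole lung of 16 fetuses in 5 groups, with 1 library per fetus. The 4 preterm controls (animals 092, 101, 113 and 209) received no intervention and were delivered at 131 to 135 days of gestation, and the 2 term controls (200 and 201) received none and were delivered at 156 and 157 days. The 4 animals of the LPS 16 h group (026, 029, 035 and 038) were given 1 mg of LPS from E. coli into the amniotic fluid at 129 or 130 days and delivered 16 hours later. The 3 animals of the LPS 5 d group (239, 240 and 242) were given the same dose at 126 to 129 days and delivered after 5 days. The 3 animals of the LPS + Beta-Ac group (248, 249 and 255) were given that dose at 126 or 127 days, the dam received 0.125 mg/kg of betamethasone acetate (Beta-Ac), a corticosteroid, into the muscle, and delivery followed after 5 days. Animals given Beta-Ac without LPS were not analysed here, so a difference between LPS + Beta-Ac and LPS is that of Beta-Ac added to LPS.

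Interferons are cytokines that bind receptors on neighbouring cells and act through Janus kinases and transcription factors such as STAT2 and IRF9 to switch on a large set of genes. The proteins of that set sense foreign nucleic acid, block the translation and replication of viral RNA, attach the ubiquitin-like protein ISG15 to other proteins, and feed back on the pathway itself. LPS reaches the same set through Toll-like receptor 4, whose adaptor TICAM1 leads to interferon beta, and genes such as IRF1 and IDO1 answer strongly to interferon gamma, the product of T and NK cells.

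The libraries held 20169363 to 28348816 counts on genes in the control and 5 d groups and 30596371 to 48052891 in the LPS 16 h group, so depth moved with that group. Library sizes were adjusted with TMM, a trimmed mean of the log ratios between libraries, and levels are given as CPM, the count scaled to that library size. This scale compares animals within a gene and, without transcript lengths, not one gene with another. The defining markers of lung epithelium, endothelium and mesenchyme were present in all 16 libraries, and their levels moved with the groups. Summed epithelial markers were 4893 to 7484 CPM in preterm controls, 5249 to 12343 at 16 hours, and 9666 to 15329 over the other 3 groups. Gene by gene, the 5 epithelial markers went both ways at 16 hours against preterm controls. Their log2 fold changes were -0.54 to 0.57, with a median of -0.17. Endothelial markers were 1411 to 1650 CPM in preterm controls, 1141 to 1211 at 16 hours and 840.1 to 1413 over the others, and mesenchymal markers were 7464 to 12851, 6036 to 8184 and 4288 to 8795 CPM. Of these 12 markers, 1 endothelial was called lower at 16 hours, 1 endothelial and 2 mesenchymal at term, and 1 mesenchymal with LPS + Beta-Ac, where 1 epithelial was called higher. Of 5 proliferation markers, 5 were called lower at 5 days, 4 at term, 2 with LPS + Beta-Ac and 0 at 16 hours, and of 4 erythroid markers 1 was called lower at 5 days. Over all genes tested, 6.07% were called lower at 16 hours, 2.23% at 5 days, 2.44% with LPS + Beta-Ac and 0.953% at term. Of 36 leukocyte markers with a row, 35 were tested. Against preterm controls 17 of them were called higher at 16 hours (8.3% of all genes were), 8 at 5 days (2.6%), 23 with LPS + Beta-Ac (4.05%) and 6 at term (1.11%), and 0 were called lower in any of these. Their summed level was 494.1 to 628.0 CPM in preterm controls, 755.2 to 780.1 in term controls, 3262 to 4046 at 16 hours, 640.6 to 740.6 at 5 days and 987.1 to 1488 with LPS + Beta-Ac. MARCO, a scavenger receptor of macrophages, was at 0 in all preterm controls, and the plasmacytoid dendritic cell marker CLEC4C had 0 to 9 counts per library. In every other group the summed leukocyte level lay above all preterm controls. This did not hold for each cell type. At 5 days the sum of the monocyte and macrophage markers, at 362.9 to 403.3 CPM, lay within the preterm range of 297.7 to 445.6. A sum follows its most abundant genes. Gene by gene, 4 of these 10 markers were called higher at 5 days and 0 lower, with a median log2 fold change of 1.11. Neutrophil markers, at 72.2 to 124.1 CPM, lay above the preterm 21.1 to 52.3. The part of these markers in the members' results was not tested, and in whole tissue a change in the number of cells of a type cannot be told apart from a change in RNA per cell.

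As a group the interferon-stimulated genes were high 16 hours after LPS, and their mean was near the preterm level 5 days after it. The mean log2 CPM over the 41 members was 4.72, 4.67, 4.73 and 4.56 in the preterm controls (092, 101, 113, 209). It was 6.03, 5.45, 6.93 and 5.53 at 16 hours (026, 029, 035, 038), 4.68, 4.66 and 4.74 at 5 days, 5.08, 4.93 and 4.92 with LPS + Beta-Ac, and 4.57 and 5.12 at term. Every 16 h animal lay above every other animal on this mean, the 5 d animals overlapped the preterm controls, and the LPS + Beta-Ac animals lay above both but below the higher term control. Animal 035 stood well above the other 16 h animals.

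**Figure D1:**
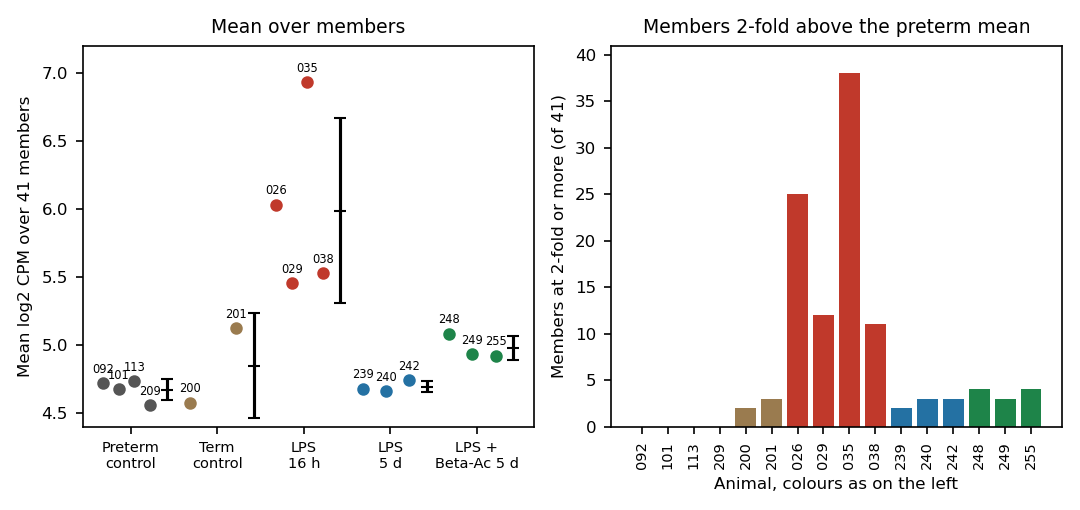
Left, mean log2 CPM over the 41 members in each animal (points, with the animal's number) and the mean with its SD for each group. Right, the number of members in each animal at 2-fold or more above the mean of the preterm controls on the log2 CPM scale, which was 38 in animal 035 and 0 in the preterm controls.

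Counted gene by gene, 25 members lay at least 2-fold above the preterm mean in animal 026, 12 in 029, 38 in 035 and 11 in 038. The same count was 2 to 3 in the 5 d animals, 3 to 4 with LPS + Beta-Ac, 2 and 3 at term and 0 in each preterm control. Over all 19199 genes tested, the share at that distance was 1.22% to 3.97% in the preterm controls and 5.90% to 7.14% in the 5 d animals. It was 6.59% to 7.84% with LPS + Beta-Ac and 7.38% and 6.56% at term (200, 201). Among the 16 h animals this share was nearly the same, with 10.1% in 026, 11.2% in 029, 11.0% in 035 and 10.6% in 038. The number of genes raised overall thus differed little between the 16 h animals, whereas the number of interferon-stimulated genes raised differed by more than 3 times.

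**Figure D2:**
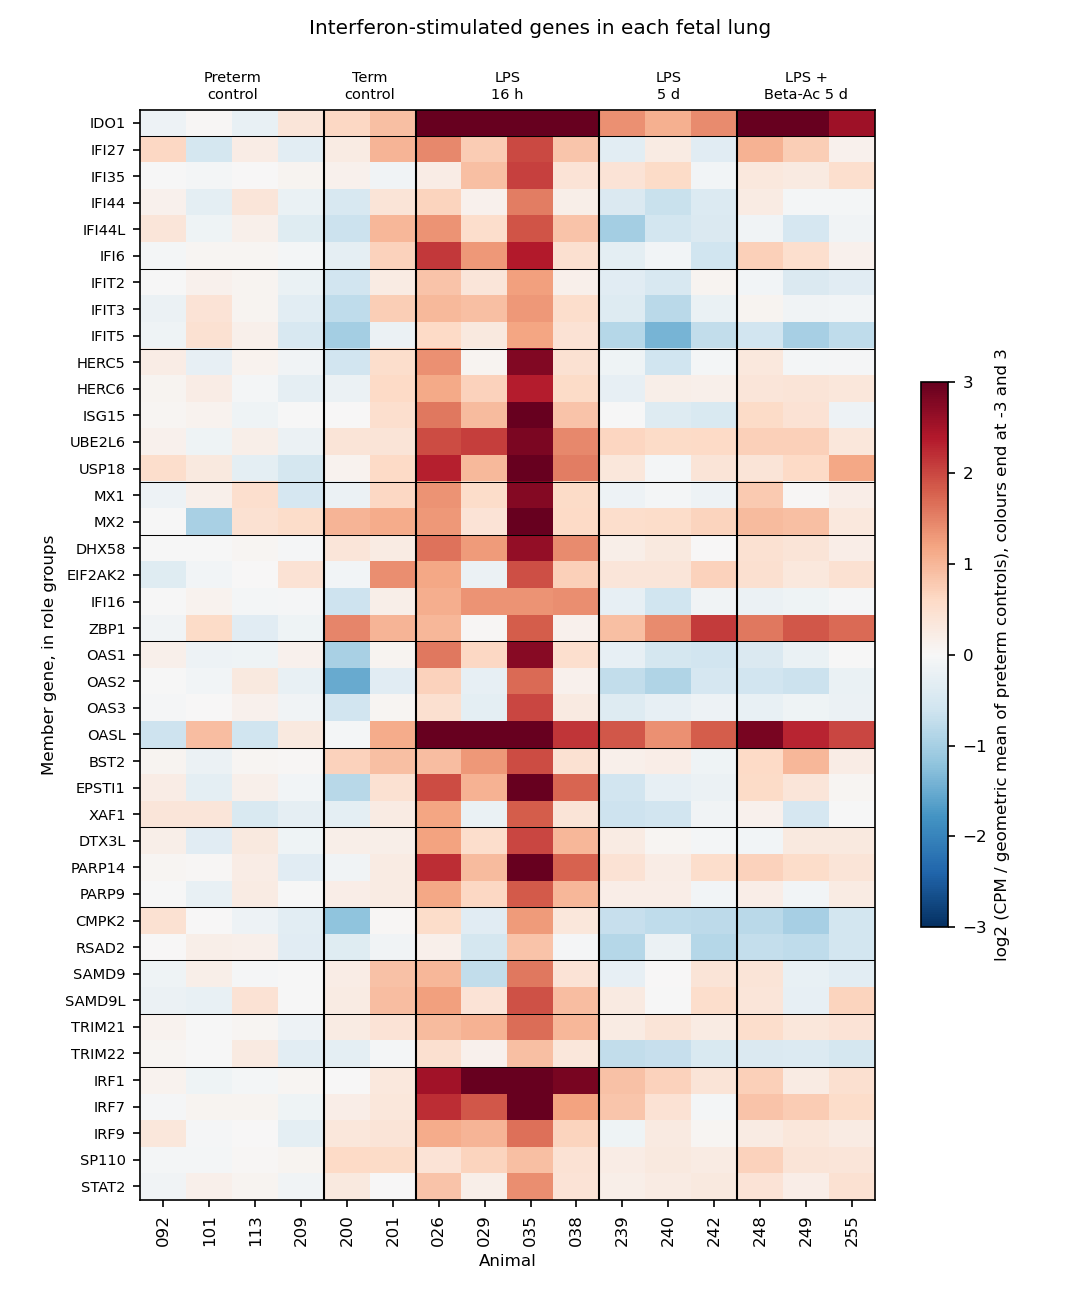
Each row is 1 of the 41 members, in role groups separated by lines, and each column 1 animal. Colour gives the log2 of CPM over the geometric mean of the preterm controls, ending at -3 and 3. The 16 h columns are red for most members, most deeply in animal 035, and the 5 d columns are mixed.

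At 16 hours, 25 of 41 members (61.0%) were called higher than in preterm controls, which means a Benjamini-Hochberg adjusted p below 0.05 over all genes tested and a fold change of at least 2. Over all 19199 genes, 8.3% were called higher and 6.07% lower. No member was called lower, at an unadjusted p below 0.05 none was lower either, and limma-voom called 23 higher and 0 lower. The share of all genes at an unadjusted p below 0.05 is not given for this or any later comparison. Counts of members at that limit therefore have no background beside them. The median log2 fold change of the members was 1.15, against -0.09 for all genes, and all 41 were above 0, from 0.11 to 4.51. The 16 h and preterm animals did not overlap for 27 members (65.9%), all of them higher at 16 hours, against 17% of all genes higher and 16.6% lower. Of the 16 members not called, 6 had an adjusted p below 0.05 with a fold change under 2. Scaling by library total lowered the median of all genes to -0.29 and called 15 members, and leaving out animal 035 called 13.

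The transcription factors of the pathway lay higher in every 16 h animal than in any preterm control. IRF1, which binds interferon response elements, had 48.7, 41.3, 43.2 and 47.2 CPM in the preterm controls (animals in the order given above) and 258, 376, 676 and 322 CPM at 16 hours. The lowest 16 h animal had more than 5 times the level of the highest preterm control, and the log2 fold change was 3.08 ± 0.22 (± SE, adjusted p = 6.79e-08). IRF7, which drives the interferon alpha genes and is itself induced by interferon, had 8.80, 9.61, 9.61 and 8.29 CPM in preterm controls and 41.8, 33.2, 122 and 20.8 CPM at 16 hours. It rose by 2.25 ± 0.38 on the log2 scale (adjusted p = 0.00032), with animal 035 near 3 times the next animal. IRF9, the DNA-binding partner of STAT2, rose by 1.11 ± 0.17 (adjusted p = 0.00014), with a range of 40.6 to 62.8 CPM in preterm controls and 78.9 to 155 CPM at 16 hours. STAT2 itself and SP110, a nuclear body protein, had adjusted p values of 0.0086 and 0.0006 with log2 fold changes of 0.71 ± 0.19 and 0.60 ± 0.11, under the limit of 1. All 5 members of the group had no overlap between 16 h and preterm animals.

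All 5 members listed in the role group for ISG15 conjugation were called higher. Whether each of them takes part in it in macaque lung was not tested. ISG15, the ubiquitin-like modifier, had 7.67, 7.95, 6.74 and 7.38 CPM in preterm controls and 22.1, 14.2, 77.3 and 13.4 CPM at 16 hours. The groups did not overlap, although animals 029 and 038 were less than 2-fold above the highest control, and the log2 fold change was 1.68 ± 0.41 (adjusted p = 0.0051). UBE2L6, the conjugating enzyme that carries ISG15, had 20.4, 17.0, 21.2 and 16.5 CPM in preterm controls and 71.9, 78.2, 132 and 50.9 CPM at 16 hours. It was the most even of the group across the 16 h animals, all of them at least 2-fold above every control, and it rose by 2.07 ± 0.21 (adjusted p = 2e-06). USP18, the protease that removes ISG15 and dampens the interferon receptor, rose by 2.05 ± 0.42 (adjusted p = 0.0014) to 11.5, 4.48, 26.4 and 6.69 CPM. The ligases HERC6 and HERC5, which are neighbours on the chromosome in the RefSeq annotation, rose by 1.19 ± 0.31 and 1.17 ± 0.44 (adjusted p = 0.0068 and 0.047). For HERC5 the groups overlapped, since animal 029 had 7.79 CPM against 8.50 in the highest preterm control.

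Among the sensors of nucleic acid, IFI16 and DHX58 were called and EIF2AK2 and ZBP1 were not. IFI16, a sensor of DNA, had 253, 278, 246 and 252 CPM in preterm controls and 546, 654, 649.6 and 673 CPM at 16 hours. Animal 035 was not above the others here, and the log2 fold change was 1.29 ± 0.15 (adjusted p = 7.29e-06). DHX58, which regulates the RNA sensors RIG-I and MDA5, rose by 1.74 ± 0.22 (adjusted p = 1.56e-05), with a range of 40.8 to 42.9 CPM in preterm controls and levels of 129, 100.1, 259.7 and 110.3 CPM at 16 hours. EIF2AK2, the kinase PKR that stops translation when it binds double-stranded RNA, had 47.8, 18.8, 80.6 and 34.9 CPM against 16.4 to 28.7 in preterm controls, and animal 029 fell within the control range. Its adjusted p was 0.069.

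IDO1, which breaks down tryptophan and is known as a strong target of interferon gamma, changed most of all members. It had 9.67, 11.1, 9.22 and 13.9 CPM in preterm controls and 304, 184, 391.9 and 172 CPM at 16 hours. No 16 h animal was within 10-fold of any control, and the log2 fold change was 4.51 ± 0.27 (adjusted p = 8.44e-09), a fold of 22.7. It was the only member of its group with a row, since GBP1, GBP2 and GBP5 had none.

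The oligoadenylate synthetases, which make the messenger that activates RNase L, had 2 of 4 members called. OASL, a family member that lacks the enzymatic activity, had 0.174, 0.508, 0.177 and 0.327 CPM in preterm controls, which is 4 to 11 counts, and 5.97, 3.92, 14.97 and 1.19 CPM at 16 hours. The log2 fold change was 3.75 ± 0.56 (adjusted p = 0.0001), with a range of 1.19 to 14.97 CPM among the 16 h animals. OAS1 rose by 1.35 ± 0.38 (adjusted p = 0.011), to 22.2, 11.3, 48.9 and 10.5 CPM from 6.66 to 8.28. OAS3 had 134, 139, 151 and 128 CPM in preterm controls and 193, 112, 557 and 166 CPM at 16 hours. Of the 16 h animals, 3 lay above all controls, 1 of them far above, and 1 lay below all of them. The difference did not pass the test (0.62 ± 0.34, adjusted p = 0.18). OAS2 was also highest in animal 035, with 144, 75.7, 288 and 97.3 CPM at 16 hours against 76.7 to 109 in preterm controls (adjusted p = 0.21). OAS1, OAS3 and OAS2 lie close together on 1 chromosome in the RefSeq annotation.

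The MX GTPases, which trap viral nucleocapsids, were both called. MX1 had 71.4, 89.6, 114 and 56.4 CPM in preterm controls and 204, 117, 539 and 119 CPM at 16 hours, a log2 fold change of 1.30 ± 0.40 (adjusted p = 0.02). The 2 lower animals at 16 hours were within 5% of the highest preterm control. MX2 had 66.4, 35.9, 225 and 41.2 CPM at 16 hours and overlapped the preterm controls, which reached 39.4 CPM (1.34 ± 0.48, adjusted p = 0.04). None of the 3 IFIT genes, whose proteins bind viral RNA ends, was called. IFIT3 had 287, 271, 356 and 210.0 CPM against 116 to 195 in preterm controls, with no overlap, and a log2 fold change of 0.92 ± 0.27 (adjusted p = 0.014). IFIT2 and IFIT5 had log2 fold changes of 0.66 ± 0.22 and 0.62 ± 0.25 (adjusted p = 0.03 and 0.06). Families such as IFIT, MX and OAS hold similar copies, and how kallisto divided reads between them is not recorded in the counts.

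Both members of the pair RSAD2 and CMPK2 stayed uncalled. RSAD2, or viperin, a radical SAM enzyme that makes a chain terminator of viral RNA synthesis, had 17.1 to 24.4 CPM in preterm controls and 24.1, 15.1, 39.3 and 21.1 CPM at 16 hours. The 16 h animals lay on both sides of the control range, and the log2 fold change was 0.11 ± 0.24 (95% interval -0.40 to 0.62, adjusted p = 0.76), the smallest of the 41 members. Its direction was not stable, since it was -0.14 without animal 035 and -0.10 with scaling by library total. CMPK2, the nucleotide kinase that supplies the substrate of viperin, had 24.2, 13.2, 40.4 and 21.0 CPM at 16 hours against 13.2 to 22.8 in preterm controls (adjusted p = 0.26). The genes overlap in the RefSeq annotation, so reads of one could be given to the other.

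The IFI genes are named for their induction by interferon, and 3 of 5 were called. IFI6, a small protein of mitochondria and endoplasmic reticulum, had 67.2, 72.1, 73.1 and 66.5 CPM in preterm controls and 302, 170.2, 364 and 97.6 CPM at 16 hours (1.57 ± 0.33, adjusted p = 0.0019). IFI27 rose by 1.26 ± 0.32 (adjusted p = 0.0059) and IFI44L by 1.15 ± 0.33 (adjusted p = 0.013), while its neighbour IFI44 had a log2 fold change of 0.63 ± 0.27 (adjusted p = 0.083). IFI35 had 39.9, 64.6, 143 and 45.7 CPM, with an adjusted p of 0.026 and a log2 fold change of 0.90 ± 0.29, under the limit.

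The complex of PARP9 and DTX3L, which modifies histones and ubiquitin, and PARP14, a relative of PARP9, were all called, each without overlap. PARP14 had 61.9, 60.3, 69.4 and 47.1 CPM in preterm controls and 272, 113, 543 and 202 CPM at 16 hours (2.03 ± 0.33, adjusted p = 0.00025). DTX3L and PARP9 rose by 1.18 ± 0.24 and 1.15 ± 0.20 (adjusted p = 0.0011 and 0.0003), and these genes overlap in the annotation. SAMD9L, a brake on translation, rose by 1.11 ± 0.29 (adjusted p = 0.007) with overlapping groups, and its neighbour SAMD9 had a log2 fold change of 0.56 ± 0.37 (adjusted p = 0.25).

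The ubiquitin ligase TRIM21, an antibody receptor of the cytosol, had 24.9, 22.9, 23.9 and 20.7 CPM in preterm controls and 44.2, 47.4, 74.2 and 46.4 CPM at 16 hours (1.17 ± 0.14, adjusted p = 1.4e-05). Its 3 lower 16 h animals were close together and animal 035 stood apart. TRIM22, another ligase of the family, had 268, 209, 361 and 246 CPM against 154 to 231 (0.46 ± 0.15, adjusted p = 0.027). BST2, or tetherin, which holds budding virus at the cell surface, rose by 1.15 ± 0.24 (adjusted p = 0.0018) to 58.9, 76.8, 120.5 and 42.5 CPM from 27.6 to 33.1. EPSTI1 rose by 1.96 ± 0.36 (adjusted p = 0.00057) to 17.4, 9.12, 39.7 and 14.9 CPM from 3.65 to 5.18, and XAF1, an antagonist of an inhibitor of apoptosis, had a log2 fold change of 0.80 ± 0.35 (adjusted p = 0.088).

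**Figure D3:**
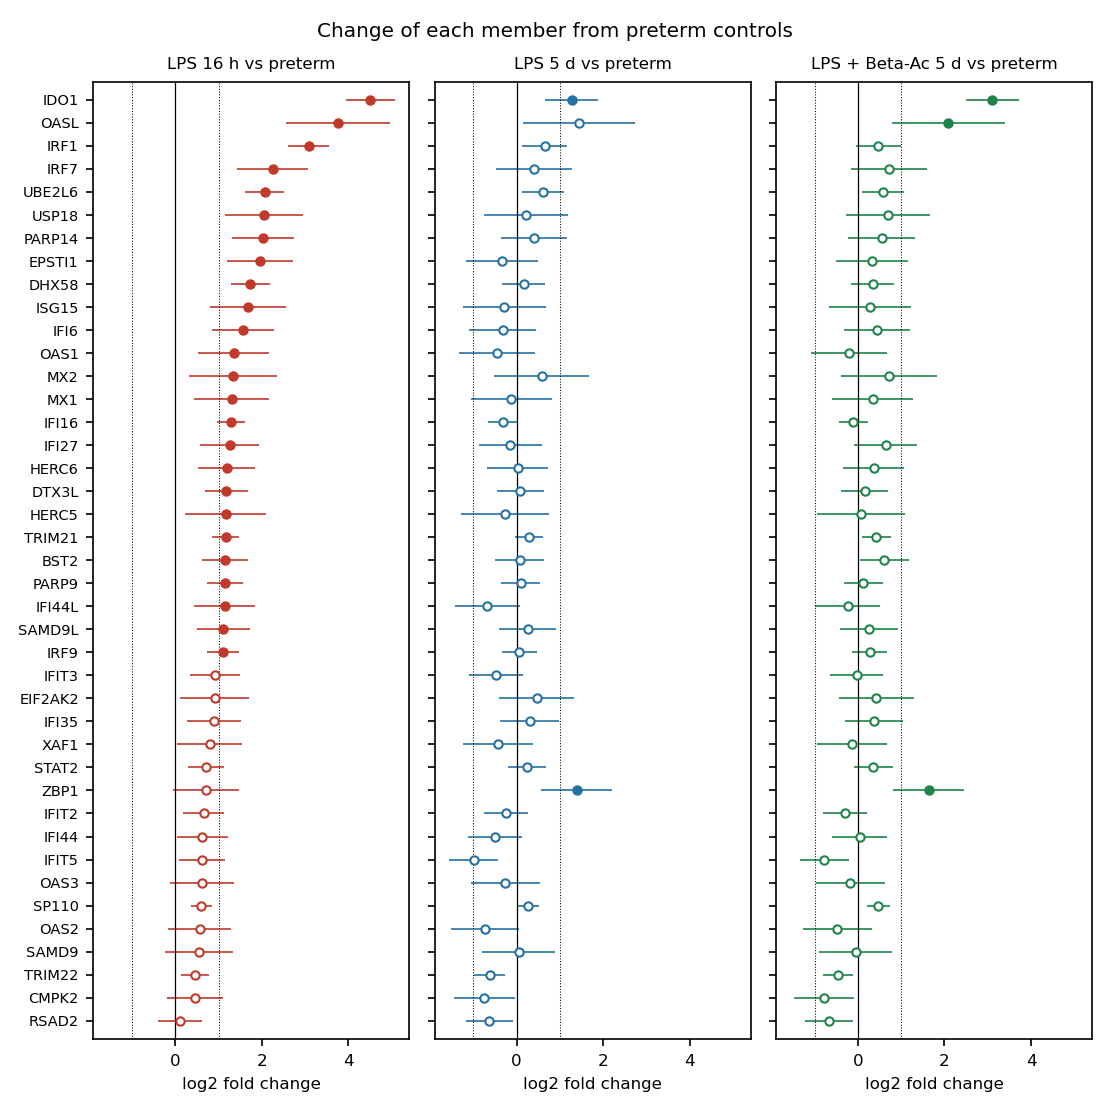
Log2 fold change of each member from preterm controls with its 95% confidence interval, in LPS 16 h, LPS 5 d and LPS + Beta-Ac animals. Filled points were called, dotted lines mark a fold change of 2, and the 3 panels share the same controls. At 16 hours all points lie right of 0, and at 5 days IDO1 and ZBP1 are the filled points.

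Animal 035 had the highest level of the 16 h animals in 40 of 41 members (97.6%). The exception was IFI16, highest in animal 038. Over the 1593 genes called higher at 16 hours, animal 035 was highest in 32.1%, and over all genes tested in 19.9%. The level in animal 035 over the mean of the other 3 animals had a median of 2.12 over the members and 1.06 over the 1593 called genes. It was 2 or more in 25 members and under 1.5 in 4, namely IFI16, SP110, IFIT3 and TRIM22. It was highest for MX2 (4.71), ISG15 (4.66), HERC5 (4.10), OASL (4.05) and IRF7 (3.81), and it was 1.78 for IDO1 and 2.12 for IRF1. Summed leukocyte markers were also highest in animal 035, with 4046 CPM against 3262 to 3394 in the other 3, and it had the deepest library. By cell type, neutrophil markers (2109 CPM against 1356 to 1668), T and NK markers and B markers were highest in animal 035. Animal 026 was highest for the others: monocyte and macrophage markers (1652 CPM, 1615 in 035), plasmacytoid dendritic cell markers (131 and 117) and PTPRC, the marker shared by leukocytes (156 and 101). The part of these values in the members' levels was not tested.

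Without animal 035, 13 of 41 members were called, all of them among the 25, and 1468 genes were called higher overall in place of 1593. The 13 were IDO1, OASL, IRF1, UBE2L6, IRF7, PARP14, USP18, EPSTI1, DHX58, IFI6, IFI16, ISG15 and IFI27, and the log2 fold changes of IDO1, OASL and IRF1 were then 4.29 ± 0.25, 3.18 ± 0.49 and 2.80 ± 0.16 (± SE). Of the 12 that were lost, 10 kept an adjusted p below 0.05 with a fold change under 2, such as IRF9 (0.94 on the log2 scale), TRIM21 (0.99) and MX1 (0.82). For HERC5 and MX2 the adjusted p became 0.12 and 0.078.

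**Figure D4:**
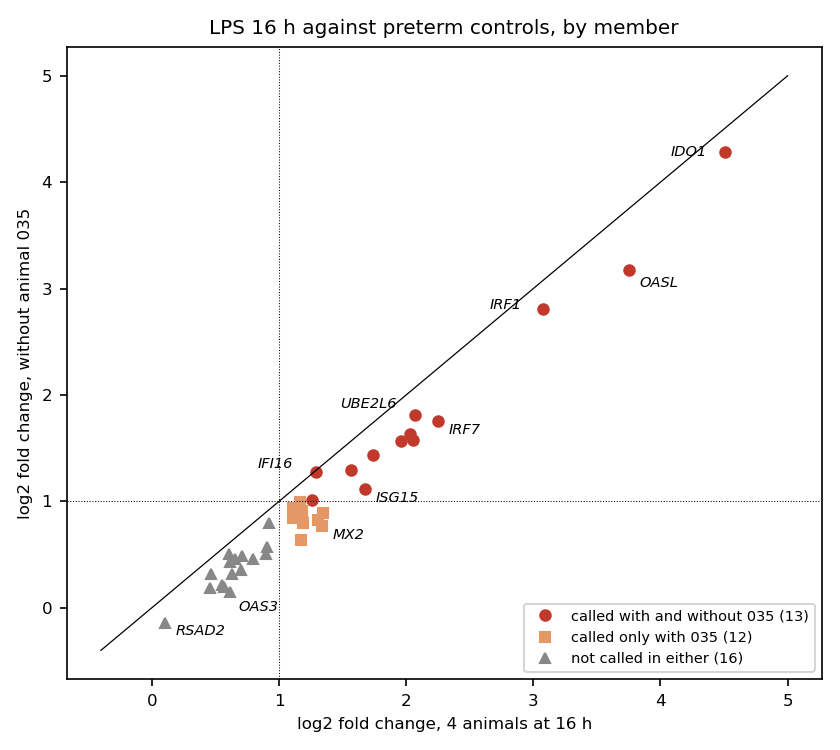
Log2 fold change of each member, LPS 16 h against preterm controls, with all 4 animals (horizontal) and without animal 035 (vertical). The line marks equal values and dotted lines a fold change of 2. IFI16 lies on the line, 13 members are called either way, and 12 are called only with animal 035.

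At 5 days after LPS few members passed the test against preterm controls. Of 41 members, 2 (4.88%) were called higher and 0 lower than in preterm controls, against 2.6% and 2.23% of all genes, so the share of members called was near that of all genes. Limma-voom called 1 higher and 0 lower. At an unadjusted p below 0.05, 6 were higher and 4 lower, which without the share of all genes is not a result about the members. The median log2 fold change was 0.05, with 22 members above 0 and 19 below. The groups did not overlap for 9 members that were higher (21.95%, against 13.6% of all genes) and 10 that were lower (24.4%, against 15.6%). The 16 h and 5 d groups are compared with the same preterm controls. Of the 25 members called at 16 hours, 1 was called at 5 days, IDO1. Of 35 leukocyte markers 8 were called higher in the same comparison, and their part in these values was not tested.

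IDO1 had 27.9, 22.6 and 29.2 CPM at 5 days (239, 240, 242), each above the highest preterm control at 13.9, with a log2 fold change of 1.28 ± 0.29 (adjusted p = 0.0085). The untreated term controls (200, 201) also lay above every preterm control, at 16.8 and 20.4 CPM. ZBP1, the sensor of Z-form nucleic acid that can start necroptosis, had 0.741, 1.20, 0.638 and 0.727 CPM in preterm controls, 1.60, 0.827, 2.84 and 0.872 CPM at 16 hours and 1.49, 2.15 and 3.42 CPM at 5 days. It was the one member called at 5 days and not at 16 hours, with a log2 fold change of 1.39 ± 0.38 (adjusted p = 0.024), and these levels rest on 17 to 122 counts per library. The call was lost without preterm control 092 or 113 or without 5 d animal 240 or 242, with adjusted p values of 0.056 to 0.12. OASL had 0.980, 0.691 and 0.949 CPM at 5 days, all above the preterm maximum of 0.508, and the adjusted p was 0.13 at a log2 fold change of 1.44 ± 0.61.

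IFIT5 and TRIM22 lay lower at 5 days than in preterm controls, with fold changes under 2. IFIT5 had 20.5, 30.5, 24.7 and 15.9 CPM in preterm controls and 12.3, 8.44 and 13.4 CPM at 5 days, with no overlap. Its log2 fold change was -0.99 ± 0.27 (adjusted p = 0.021), just short of the fold limit of 2, and it was called lower without preterm control 092 or 209, without 5 d animal 239 or 242, and with scaling by library total. TRIM22 had 202, 192, 231 and 154 CPM in preterm controls and 116, 119.6 and 141 CPM at 5 days, again without overlap (-0.62 ± 0.17, adjusted p = 0.02). They were the only members with an adjusted p below 0.05 in the lower direction. RSAD2, CMPK2, OAS2 and IFI44L had log2 fold changes of -0.63 ± 0.26, -0.74 ± 0.33, -0.72 ± 0.37 and -0.67 ± 0.36, with adjusted p values of 0.12, 0.15, 0.22 and 0.24.

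**Figure D5:**
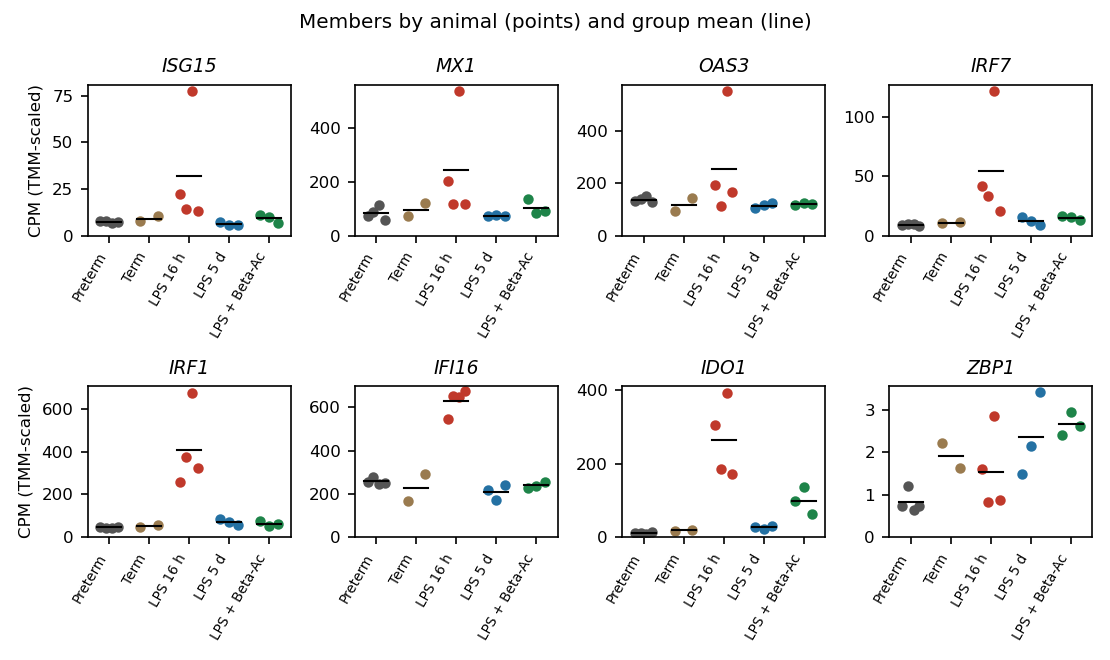
TMM-scaled CPM of 8 members in each animal (points), with the mean of each group (line), on axes that start at 0. ISG15, MX1, OAS3 and IRF7 have 1 high point at 16 hours, animal 035, whereas IFI16 is high in all 4 animals, IDO1 is intermediate with LPS + Beta-Ac, and ZBP1 is higher in both 5 d groups than in preterm controls.

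The 16 h and 5 d groups were also compared directly. At 16 hours 29 of 41 members (70.7%) were called higher than at 5 days and 0 lower, against 8.02% and 6.61% of all genes, and limma-voom called 28 and 0. At an unadjusted p below 0.05, 36 were higher and 0 lower. The median log2 fold change was 1.23, and leaving out animal 035 left 17 called higher and 1, ZBP1, called lower. The largest differences were IDO1 at 3.23 ± 0.29, IRF1 at 2.43 ± 0.24, OASL at 2.31 ± 0.61 and EPSTI1 at 2.29 ± 0.39 (adjusted p = 9.24e-07, 2.68e-06, 0.0081 and 0.00033). Of the 25 members called higher at 16 hours than in preterm controls, 22 were also called here. Another 7 were called only against the 5 d animals, each with a negative log2 fold change at 5 d against preterm controls, and they included IFIT5 (1.61 ± 0.27, adjusted p = 0.00026), IFIT3 (1.39 ± 0.29, adjusted p = 0.0017) and TRIM22 (1.09 ± 0.17, adjusted p = 0.00013). ZBP1 was the only member with a negative log2 fold change (-0.69 ± 0.38, adjusted p = 0.18).

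With LPS + Beta-Ac, 3 of 41 members (7.32%) were called higher than in preterm controls and 0 lower, against 4.05% and 2.44% of all genes. Limma-voom called 2 and 0, and at an unadjusted p below 0.05, 7 were higher and 4 lower. The median log2 fold change was 0.33. No overlap was seen for 15 members that were higher (36.6%, against 14.7% of all genes) and 5 that were lower (12.2%, against 16.1%). IDO1 had 97.0, 136 and 62.8 CPM (248, 249, 255), each at least 4 times the highest preterm control, with a log2 fold change of 3.11 ± 0.29 (adjusted p = 1.07e-05). OASL had 1.92, 1.30 and 1.08 CPM (2.09 ± 0.61, adjusted p = 0.027) and ZBP1 2.41, 2.93 and 2.62 CPM (1.64 ± 0.38, adjusted p = 0.0082). OASL lost its call without preterm control 092 or 113 or without animal 248 or 249. SP110 had an adjusted p of 0.013 at a log2 fold change of 0.48 ± 0.12, with a range of 45.2 to 49.6 CPM in preterm controls and 60.7 to 75.8 CPM with Beta-Ac. At the low end, CMPK2, IFIT5 and RSAD2 had log2 fold changes of -0.78 ± 0.33, -0.77 ± 0.27 and -0.67 ± 0.26, all without overlap, and adjusted p values of 0.12, 0.059 and 0.091. Leukocyte markers stood higher in this group as well, with 23 of 35 called, and their part was not tested.

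IDO1 was also the one member called between LPS + Beta-Ac and LPS at 5 days. Its levels of 97.0, 136 and 62.8 CPM with Beta-Ac and 27.9, 22.6 and 29.2 CPM without did not overlap, and the log2 fold change was 1.83 ± 0.31 (adjusted p = 0.036). The call was fragile: leaving out animal 239, 240, 242, 248 or 249 raised the adjusted p to between 0.10 and 0.21, with log2 fold changes of 1.56 to 1.90, and limma-voom and a fit to these 2 groups alone did not call it. The count of 1 in 41 (2.44%) stands beside 0.104% of all genes called higher and 0% called lower in this comparison. No member was called lower, and at an unadjusted p below 0.05, 2 were higher, IDO1 and IFI27, and 0 lower. Of all 41 members, 33 had a log2 fold change above 0, with a median of 0.21, against 49.8% of all genes above 0. The groups did not overlap for 11 members, all higher with Beta-Ac (26.8%, against 6.33% of all genes higher and 5.05% lower). IFI27 had 74.9, 60.6 and 39.9 CPM with Beta-Ac and 29.0, 43.1 and 28.4 CPM without (0.78 ± 0.36, 95% interval 0.00 to 1.56, adjusted p = 1.00), and IFI6 had 115, 98.2 and 76.2 and 56.8, 65.7 and 46.4 CPM (0.77 ± 0.38, 95% interval -0.05 to 1.59). EPSTI1 differed by 0.66 ± 0.41 (95% interval -0.23 to 1.54). These intervals reach from no difference to a fold change above 2.

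Term lung was compared with preterm lung to see how the members differ without LPS. Limma called 0 of 41 members higher and 0 lower, against 1.11% and 0.953% of all genes, and limma-voom called 0 and 0. At an unadjusted p below 0.05, 4 were higher and 1 lower. The median log2 fold change was 0.21, and it moved from -0.07 without animal 201 to 0.39 without animal 200, so it rests on which term control is used. Of 35 leukocyte markers 6 were called higher at term, and their part was not tested. SP110, with 71.5 and 69.6 CPM at term and 45.2 to 49.6 CPM in preterm controls, had an adjusted p of 0.031 at a log2 fold change of 0.58 ± 0.14. ZBP1 had 2.21 and 1.62 CPM (1.16 ± 0.44, adjusted p = 0.15), MX2 55.3 and 58.5 CPM (1.07 ± 0.58, adjusted p = 0.35) and BST2 50.5 and 58.0 CPM (0.80 ± 0.30, adjusted p = 0.16). IDO1 had 16.8 and 20.4 CPM, both above the highest preterm control at 13.9 (0.77 ± 0.33, adjusted p = 0.21). OAS2 was the lowest, at 31.2 and 70.6 CPM (-0.92 ± 0.42, adjusted p = 0.25). The 2 term animals differed widely for several members, such as EIF2AK2 with 20.1 and 55.9 CPM, IFI44L with 11.2 and 34.7 CPM and IFIT3 with 85.9 and 243 CPM.

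Upstream of the members, the interferons that had a row were scarce in these libraries. IFNE, IFNL2, IFNA1 and IFNA2 had no row under their symbols and could not be assessed. Of 14 ligands listed, 10 had a row, and the 9 other than IFNG had at most 4 counts in any library, 3 of them 0 in all, so that none could be tested. IFNB1, the interferon that TICAM1 leads to, had 2, 0, 1 and 0 counts in the 16 h animals. IFNG, interferon gamma, had 1, 0, 0 and 3 counts in the preterm controls and 20, 11, 75 and 16 at 16 hours, again highest in animal 035. It was called higher at 16 hours (adjusted p = 0.0023), and no fold is given because the control counts are so low. At 5 days it had 2, 5 and 2 counts, and with LPS + Beta-Ac 1, 6 and 0.

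Of 8 tested interferon receptor subunits and Janus kinases, 2 were called higher at 16 hours and 0 lower, where 8.3% of all genes were called higher. JAK2, a kinase of the interferon gamma receptor, and the interferon gamma receptor subunit IFNGR2 rose by 1.68 ± 0.22 and 1.496 ± 0.11 (adjusted p = 2.07e-05 and 6.68e-08). The subunits of the type I receptor, IFNAR1 and IFNAR2, were not called. Their log2 fold changes of 0.24 ± 0.15 and 0.64 ± 0.16 were above 0 but under the limit of 1, so they could not be called at any p. At 5 days none of the 8 was called with or without Beta-Ac.

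Of 18 genes on the routes from LPS or nucleic acid to interferon, 12 were called higher at 16 hours and 0 lower, against 8.3% of all genes higher. TLR4, the LPS receptor, rose by 3.72 ± 0.23, the kinase IKBKE by 2.77 ± 0.15, TRAF3 by 2.37 ± 0.16 and the DNA sensing adaptor STING1 by 1.98 ± 0.16 (adjusted p of at most 1.43e-07 for the 4). TICAM1 itself rose by 1.56 ± 0.17 (adjusted p = 3.71e-06) and IRF3, which it activates, had a log2 fold change of 0.29 ± 0.15 (adjusted p = 0.14). Among these routes IKBKE alone was called at 5 days, against 2.6% of all genes higher (1.10 ± 0.16, adjusted p = 0.00066), and with LPS + Beta-Ac 3 were, against 4.05%, namely TLR4, IRF5 and IKBKE (2.33 ± 0.25, 1.77 ± 0.37 and 1.31 ± 0.16). A further list of 11 genes held inhibitors of interferon signalling, such as SOCS3, CISH and PTPN2, and also ISG20, an antiviral exonuclease, and TRIM25, a ubiquitin ligase of RIG-I signalling, which are not inhibitors of the pathway. Of the 11, 6 were called higher at 16 hours and 0 lower, against 8.3% of all genes higher, led by SOCS3 (4.50 ± 0.37), ISG20 (2.92 ± 0.34), CISH (2.66 ± 0.16) and PTPN2 (1.79 ± 0.11), with adjusted p values of at most 7.58e-06. SOCS3, an inhibitor of Janus kinases, was the 1 of the 11 called higher at 5 days, against 2.6% of all genes (1.79 ± 0.40, adjusted p = 0.0093). With LPS + Beta-Ac 2 of the 11 were called higher, against 4.05%. Untreated term lung had 1 of these 11 and 1 of the 18 route genes called higher than preterm lung, against 1.11% of all genes.

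A wider list of 60 interferon-induced genes gave 44 that were tested, of which 24 were called higher at 16 hours and 0 lower, against 8.3% of all genes higher, with a median log2 fold change of 1.35. CXCL10, the chemokine that draws activated T cells, rose by 8.43 ± 0.52 (adjusted p = 1.48e-08), and CXCL9 by 5.45 ± 0.66 (adjusted p = 1.33e-05). CXCL11 had 0 to 3 counts in the preterm controls and 169 to 2004 at 16 hours. CCL8 rose by 4.65 ± 0.49 and CD274, the checkpoint ligand PD-L1, by 4.52 ± 0.18 (adjusted p = 4.14e-06 and 2.81e-10). GBP3, a guanylate-binding protein like the members GBP1, GBP2 and GBP5 that had no row, rose by 3.36 ± 0.34 (adjusted p = 3.74e-06). Animal 035 was highest in 20 of the 24 called genes of this list, in 9 of the 12 called genes of the routes and in 2 of the 6 called genes of the list with the inhibitors. IFIT1 had a log2 fold change of 0.42 ± 0.28 (adjusted p = 0.26), beside 0.66 ± 0.22 and 0.62 ± 0.25 for its relatives IFIT2 and IFIT5. At 5 days 4 of the 44 were called, against 2.6% of all genes, namely IFI30, CXCL10, SIGLEC1 and APOL6, and with LPS + Beta-Ac 6 were, against 4.05%, led by IFI30 (3.05 ± 0.33) and SIGLEC1 (2.64 ± 0.50), a lysosomal reductase and a receptor of macrophages.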

How the data were processed

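Poly(A)-selected RNA of whole lung was sequenced as 75 bp paired-end reads from 16 fetuses in 5 groups, which were taken from the labels. The authors assigned reads to transcripts with kallisto on the rhesus build Mmul_10, summarised them per gene with tximport, used DESeq2 for their own comparisons, and deposited raw counts, whole numbers for each animal and Ensembl gene. No source used here gives the annotation release or the tool versions, and the study's methods name a column kit for the extraction where the labels name Trizol. The layout of the table (bare numbers as column names, carriage returns as line ends) could not be read by the automatic unit check, so the deposited unit was recorded as other. The 2 count models planned, a quasi-likelihood test as the main test and the authors' own tool as an alternative, were therefore not run, and limma took their place.

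Symbols came from a table of gene IDs, in which 17256 IDs matched; each of the 41 members with a row matched 1 ID. Counts were scaled with TMM (trim of 30% of log ratios and 5% of means), turned into log2 CPM with a prior count of 2, and fitted with limma 3.58.1 (trend and robust) in R 4.3.3, with 1 mean per group over all 16 animals. Genes entered the test with 15 or more counts over all libraries and 0.371 CPM (10 counts in a library of median size) in 2 or more animals. Called means a Benjamini-Hochberg adjusted p below 0.05 over 19199 genes and a fold change of at least 2. All tests are two-sided, and a fold change is on the log2 CPM scale with its prior count, which understates changes of low genes. Depth was 20169363 to 48052891 counts per library, and counting error is not negligible for low genes such as OASL (4 to 11 counts in preterm controls). The fit was tested on simulated data. Other settings tried were 2 other scalings, another prior count, other filters, limma-voom, fits to the compared groups alone, and leaving out animals.

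The members, the role groups, the pathway lists and the marker lists were chosen with earlier results of these data known, so they carry no independent support. Among the pathway lists, 1 gene is not reported here. Named members were the 4 with the largest change in each comparison, the most abundant of each role group, and every called one where at most 5 were called; other members named were chosen after their values were seen. Genes outside the members were to be named where called, up to 4 per list and comparison, and those named beyond that were chosen after their values were seen. The order of neighbouring genes came from the RefSeq annotation of another assembly, so no coordinates are given, and promoter motifs were not analysed here. Sex and sequencing batch are not in the labels, and animal numbers do not recur between groups.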

Additional observations from a re-analysis of the deposited data

Results flagged for a closer look

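TRIM21 in animal 035 stood apart from the other 16 h animals. Its level there was 6.22 log2 CPM, and the other 3 lay between 5.47 and 5.57. It was the 1 set among 82 sets of 4 animals (41 members in the preterm controls and at 16 hours) whose gap to the nearest animal passed Dixon's 95% critical value, at 0.864 of the range, and chance alone would pass about 1 in 20 sets.

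The levels of the members differed between the LPS 16 h and LPS 5 d groups. Preterm controls received no intervention, so an effect of LPS cannot be told apart from that of the injection. Tested directly between these groups, 29 members were called higher at 16 hours, and 17 were without animal 035.

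IDO1 at 5 days was higher with LPS + Beta-Ac than with LPS, by 1.83 on the log2 scale (adjusted p = 0.036 by limma, higher in 3 of 3 animals). The adjusted p rose to between 0.10 and 0.21 in 5 of the 6 fits that left out 1 of these animals. Without animals given Beta-Ac alone, an effect of Beta-Ac by itself cannot be told apart from a changed effect of LPS.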

How the results depend on the processing

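At 16 hours against preterm controls, leaving out 1 animal gave 13 to 28 members called higher, lowest without animal 035 and highest without animal 029, and scaling by library total gave 15 in place of 25. Library total scaling moved the median of all genes from -0.09 to -0.29 in this comparison. Against the 5 d animals, leaving out 1 animal gave 17 to 31 called higher, and 0 to 1 called lower, which was ZBP1 without animal 035. RSAD2 at 16 hours changed sign, at -0.10 with library total scaling, -0.0066 without preterm control 209 (also with term control 200 left out), and -0.14 to 0.35 over the fits that left out 1 animal. At 5 days, leaving out 1 animal gave 1 to 2 members called higher, 0 to 1 called lower and a median log2 fold change of -0.036 to 0.067, and limma-voom called 1 higher. In the lower direction library total scaling called 1, leaving out animals 209 and 200 called 1 with a median of -0.033, and no minimum fold called 2. At term, no minimum fold called 1 member higher. Between LPS + Beta-Ac and LPS, leaving out 1 animal gave 0 to 1 called higher, and limma-voom and the fit to these groups alone called 0. The cause of these changes was not tested. The other alternatives (median-of-ratios scaling, a prior count of 0.5, no filter and a stricter filter) left each count of members within 1.5 times. Over 36 named values and 584 alternative fits of them, 542 kept direction and side of the limits, 25 lost a call, 13 gained one and 4 changed sign, all 4 for RSAD2.

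The planned count models were not run, nor was the search for promoter motifs. No paired analysis was possible because no animal number recurs between groups. The groups hold 2 to 4 animals, the labels give neither sex nor batch for an animal, neither was modelled, and the deeper libraries at 16 hours cannot be told apart from that group. Replicates are separate fetuses, and 1 library per fetus does not separate technical from biological spread.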
